A study of Mus musculus with 14 samples.

Results

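The 34 genes described here are the Wnt ligands and their cell-surface receptors. They are the 19 mouse Wnt ligand genes, the 10 Frizzled receptor genes and 5 co-receptor genes (Lrp5, Lrp6, Ror1, Ror2 and Ryk), taken by symbol from a count table of 53465 genes. Each symbol matched 1 gene ID. The study measured polyA RNA in wild-type C57BL/6 mouse embryos by RNA-seq, in dorsal skin and in the aorta-gonad-mesonephros region (AGM), the tissue around the dorsal aorta in which blood stem cells arise. It holds 14 libraries in 7 groups of 2. The dorsal skin ages were E9.5 and E10.5, then E12.5 and later E14.5, with 1 library per age in a first sequencing project (titles beginning with E) and 1 per age in a second (titles beginning with ES). AGM libraries carry the labels E9.5, E10.5 and E11.5, each sequenced in 2 rounds under separate project numbers. For the E9.5 AGM group the label names the caudal embryo including "PsP" as the tissue. Columns of the second AGM round carry a sample number and no age, and were given the age that the first-round label gives to that number, which is an assumption. No animal was treated, no allele was altered, and the sources used here do not say whether embryos were pooled. Whole tissue was used, so each value is an average over several cell types, and fewer cells of a type cannot be told apart from less RNA per cell.

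Wnt proteins are secreted, lipid-modified signals that act over short distances. When a Wnt binds a Frizzled together with Lrp5 or Lrp6, beta-catenin is spared from destruction and turns on target genes with TCF/LEF factors. Ligands such as Wnt5a and Wnt11 act mainly through other branches, with Ror1, Ror2 or Ryk, that steer cell polarity and movement. In skin the beta-catenin branch is needed for the dermis and for the first hair placodes. In the trunk, Wnt3a maintains the tailbud, Wnt1 and Wnt3a come from the roof plate of the neural tube, and Wnt9b comes from the nephric duct and drives formation of kidney tubules.

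Library totals were 19929352 to 24003912 counts in first-project skin, 6770338 to 15440012 in second-project skin and 21527400 to 29534551 in AGM. Values are CPM, counts scaled by the library total, unless said otherwise. Several libraries stood apart from their labels. The AGM libraries labelled E11.5 carried 126 and 65.5 CPM (first and second round) summed over 5 tailbud and presomitic mesoderm markers, against 2.47 to 5.65 in the other AGM libraries. All 5 markers (Tbx6, Cdx2, Nkx1-2, Fgf8 and Msgn1) were higher in both E11.5-labelled libraries than in both labelled E10.5, where Msgn1 was at 0. The 5 neural tube markers summed to 208 and 215 CPM against 6.7 to 19, with all 5 higher and Atoh1 at 0 in the libraries labelled E10.5. The 5 mesonephros markers summed to 52.4 and 45.7 CPM against 152 to 214, with 4 of 5 lower. Lin28a, an RNA-binding protein of early embryos, was at 23 and 40.8 CPM in the libraries labelled E9.5, 121 and 129 in those labelled E10.5 and 571 and 496 in those labelled E11.5. In first-project skin it ran the other way with age, at 366, 84.6, 0.667 and 0.94 CPM. Hbb-bt, an adult-type globin, was at 139 and 61.3 CPM in the libraries labelled E9.5, 35.5 and 28.7 in those labelled E10.5 and 3.42 and 3.16 in those labelled E11.5, while in first-project skin it went up with age, at 2.71, 13, 59.2 and 1349.9 CPM. Hba-a1, another globin, was at 538 and 269, then 357 and 236 and 168 and 194 CPM by AGM label, and the embryonic globin Hbb-bh1 overlapped between labels. These genes were chosen after their values were seen. By Lin28a, Hbb-bt and Hba-a1 the AGM libraries of each round stand in the reverse of their labelled order. Whether the labels E9.5 and E11.5 are exchanged was not tested. Ages of AGM libraries are given below as labelled, "rose" and "fell" follow the labelled order, and both would turn, and the AGM libraries set beside skin at E9.5 would be others, if the labels were exchanged. Second-project skin had 0 CPM of all 3 primitive red cell markers and 116 to 219 CPM summed over the 2 markers of dividing cells, against at least 1170.3 in first-project skin. Its libraries are kept apart from those of the first project throughout.

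Per kilobase of exon, which allows genes to be set beside each other, the leading ligand differed between tissues and between skin projects. In the 4 second-project skin libraries Wnt5a made up 79.5% to 86.0% of the summed ligand level of 30.8 to 55.1 CPM per kb. In first-project skin the summed level was 57.2, 82.8, 122 and 229 CPM per kb in age order. The leading ligand there was Wnt6 at E9.5 (18.0% of the sum), Wnt7b at E10.5 (17.1%), Wnt5a at E12.5 (35.5%) and Wnt6 again at E14.5 (29.1%). In AGM libraries the sum was 36.2 to 60.8 CPM per kb. Wnt5a led in 5 of these 6 libraries, with 22.1% to 33.6% of the sum, and Wnt6 led in the second-round library labelled E11.5 with 19.3% against 17.0% for Wnt5a.

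**Figure D1:**
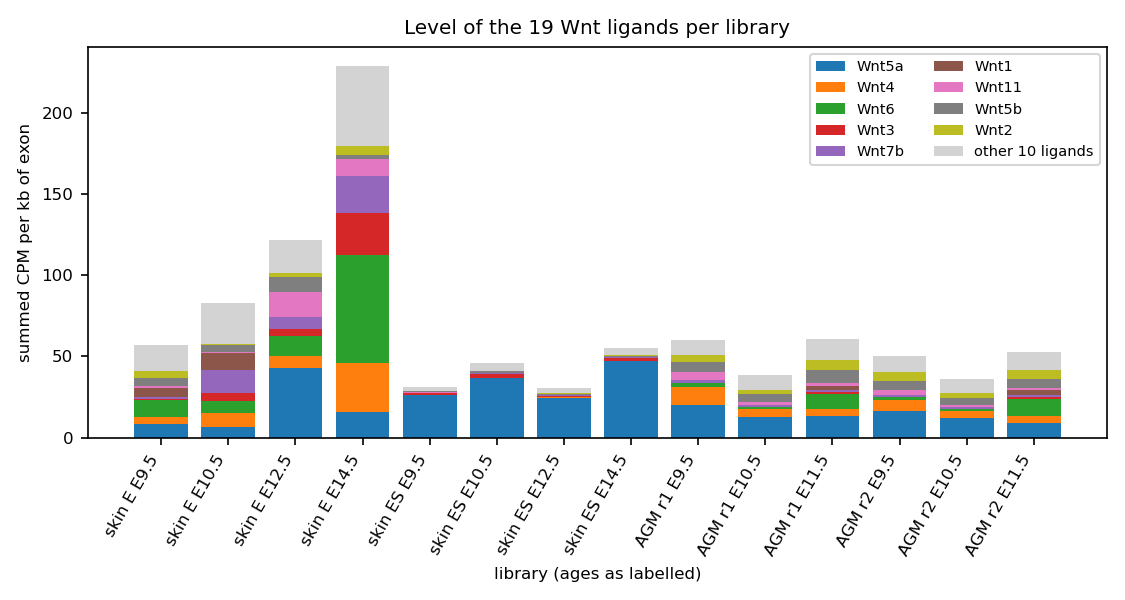
Summed level of the 19 Wnt ligands in CPM per kb of exon (bar height), split by ligand, for each of the 14 libraries. First-project skin reaches 229 CPM per kb at E14.5, and second-project skin consists mostly of Wnt5a, at 79.5% to 86.0%.

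Frizzled levels were summed in the same way. They came to 179 to 231 CPM per kb in first-project skin, 41.7 to 48.1 in second-project skin and 139 to 167 in AGM. Fzd2 and Fzd7 are widely used receptors of mesenchyme and progenitor cells. Fzd2 had 202, 169, 324 and 168 CPM in first-project skin from E9.5 to E14.5 and 16.4, 23.2, 19.2 and 17.6 CPM in second-project skin. In AGM it had 212 and 166 CPM at E9.5, then 210.4 and 168 at E10.5 and 175 and 143 at E11.5. Fzd7 had 268, 168, 154 and 114 CPM in first-project skin over the same ages. Second-project skin was led by Fzd1 and Fzd7, with Fzd1 at 64.4, 81.9, 64.4 and 72.4 CPM in age order and Fzd7 at 64.5, 56.2, 79.8 and 52.9. Ryk, an atypical receptor kinase that binds Wnts, was the highest of the 5 co-receptors per kb in each of the 14 libraries, with 28.4% to 56.8% of their summed level. Its CPM was 122, 130.2, 169.8 and 294 in first-project skin and 117, 135, 117 and 129 in second-project skin. In AGM it had 111 and 112 CPM at E9.5, then 103 and 109 at E10.5 and 106 and 114 at E11.5. Lrp6, the co-receptor most needed for the beta-catenin branch, had 203, 198, 282 and 236 CPM in first-project skin, 132, 124, 158 and 139.96 in second-project skin and 160.1 to 225 in AGM. Its close relative Lrp5 had 106, 76.9, 159 and 182 CPM in first-project skin, 81.7, 94.5, 101 and 99 in second-project skin and 75.3 to 141 in AGM.

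**Figure D2:**
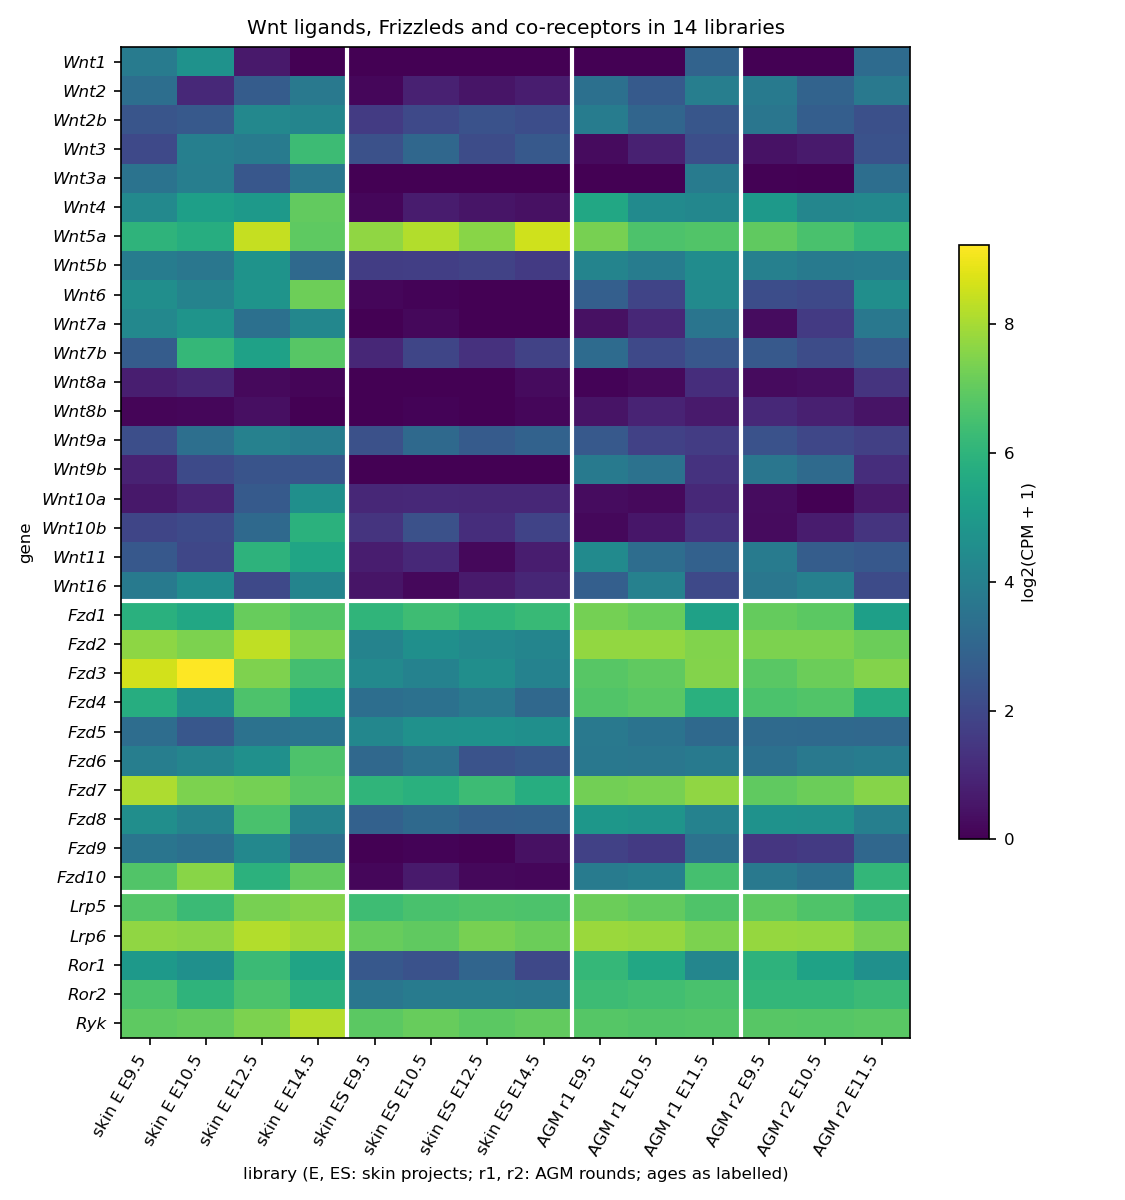
Colour gives log2(CPM + 1) for the 34 genes (vertical axis, in 3 blocks of ligands, Frizzleds and co-receptors) in 14 libraries (horizontal axis, in blocks of skin titles E, skin titles ES, AGM round 1 and round 2). Of the ligands, only Wnt5a is bright in each library, reaching 370.5 CPM, while Lrp5, Lrp6 and Ryk are bright in all 14.

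The AGM libraries labelled E11.5 and E10.5 differed in 19 of the 34 genes, 13 higher and 6 lower in those labelled E11.5. Over all 17613 genes tested in the fit of 6 AGM libraries, 27.2% were called, 11.8% as higher and 15.4% as lower. Of the 19 ligands 9 rose and 2 fell, of the 10 Frizzleds 4 rose and 3 fell, and of the 5 co-receptors 1 fell. Among the 13 that rose, 4 (Wnt1, Wnt3a, Wnt8a and Wnt10a) passed the low-count filter only through the libraries labelled E11.5, so their direction was bound to be upward. The median log2 change was 0.19 over the 34 genes and 0.70 over the ligands with these 4 included, and 0.00 over 30 genes and 0.06 over 15 ligands without them, beside 0.00 over all genes tested. With the round as a block 27 members were called, 17 higher and 10 lower, beside 48.2% of all genes (24.2% and 24%). The change had the same sign within each round for all called members with counts at both labels, 17 in the first round and 16 in the second. The calls were made on these same libraries, so this agreement largely follows from the selection and is no separate support. Within the first round alone, whose ages need no assumption, 15 members differed by 2-fold or more, with no replicate. All 15 were among the 19 called on these libraries, Wnt1, Wnt3a, Wnt8a and Wnt10a included. The share of all genes at 2-fold in that round is not given here, so the count is no separate support.

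Wnt3a and Wnt1, ligands of the tailbud and roof plate, were found almost only under the E11.5 label. Wnt3a (chr11:59248033-59290752 in GRCm38, minus strand) was at 13.4 and 9.15 CPM in the first and second round at E11.5, at 0 in both libraries labelled E10.5, and at 0 and 0.0411 CPM in those labelled E9.5. With 529 counts against 0 it was at least 191-fold higher (floor of 3 counts over the group), with an adjusted p of 9.4e-05. Wnt1 (chr15:98789857-98793837, plus strand) was at 6.61 and 8.41 CPM at E11.5 and at 0 in the 4 other AGM libraries. Its 345 counts against 0 put it at least 125-fold higher, with an adjusted p of 0.000163. For both genes the libraries labelled E11.5 lay apart from all others. Both passed the low-count filter only through those libraries, so a rise was the only change that could be called. The tailbud, neural tube and roof plate markers were also higher at E11.5 than at E10.5. The 3 roof plate markers (Lmx1a, Gdf7 and Msx1) summed to 82.6 and 80.0 CPM at E11.5 and 20.2 and 16.8 at E10.5, all 3 higher. At E9.5 they summed to 32.4 and 21.7 CPM. Msx1 made up most of the E11.5 sums, at 68.2 and 64.8 CPM. Lmx1a and Gdf7 overlapped between E9.5 and E11.5, Lmx1a with 21.3 and 11.4 CPM at E9.5 and 13.2 and 14.6 at E11.5. The part of these markers in the result was not tested.

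Wnt7a, Wnt6, Wnt3 and Wnt2 also rose. Wnt7a, a ligand of dorsal limb ectoderm and neural tissue, had 0.339 and 0.247 CPM at label E9.5, then 1.06 and 1.94 at E10.5 and 10.9 and 11.8 at E11.5. Its log2 change to E11.5 was 3.01 ± 0.27 (SE), with an adjusted p of 0.000227. Wnt6, made by surface ectoderm, had 5.89 and 3.57 CPM at E9.5, then 2.73 and 3.1 at E10.5 and 20.4 and 22.4 at E11.5, a log2 change of 2.96 ± 0.23 with an adjusted p of 0.000122. In both, each round showed the same step, and the libraries labelled E10.5 and E11.5 did not overlap. Wnt3, which acts in early axis formation and in limb ectoderm, had 0.203 and 0.37 CPM at E9.5, then 0.816 and 0.581 at E10.5 and 3.67 and 3.95 at E11.5, a log2 change of 2.53 ± 0.31, adjusted p 0.000981. Wnt2, a ligand of lung and heart mesenchyme, had 9.68 and 12.53 CPM at E9.5, then 5.1 and 6.58 at E10.5 and 14.3 and 12.3 at E11.5, and its log2 change from E10.5 was 1.28 ± 0.20, adjusted p 0.0026. Wnt2 was thus lowest under the E10.5 label, with E9.5 and E11.5 overlapping. Surface ectoderm and keratinocyte markers moved in the same direction: all 7 were higher at E11.5, summing to 283 and 308 CPM against 94 and 113, and their part in the result was not tested.

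Further ligands rose from low levels. Wnt8a, which marks the early posterior embryo, was at 0.0677 and 0.205 CPM at E9.5, then 0.163 and 0.271 at E10.5 and 1.29 and 1.63 at E11.5 (log2 change 2.80 ± 0.48, adjusted p 0.00413). Wnt10b, a placode ligand in skin, had 0.135 and 0.205 CPM at E9.5, then 0.49 and 0.62 at E10.5 and 1.53 and 1.63 at E11.5 (log2 change 1.59 ± 0.33, adjusted p 0.0102). Wnt10a, its relative, had 0.237 and 0.247 CPM at E9.5, then 0.163 and 0 at E10.5 and 1.09 and 0.557 at E11.5, with a log2 change of 3.40 ± 0.83 and an adjusted p of 0.0189. These levels are low, and Wnt8a and Wnt10a passed the low-count filter only through the libraries labelled E11.5. The direction of these 2 genes was thus bound to be upward. Wnt10b lost its call without the library labelled E10.5 of the first round (adjusted p 0.0834) or of the second (0.0536), and Wnt10a without the first-round one labelled E11.5 (0.113) or the second-round one labelled E10.5 (0.0819).

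Wnt9b and Wnt16 fell. Wnt9b (chr11:103727364-103749821, minus strand), the nephric duct ligand, had 12.7 and 11.2 CPM at label E9.5, then 10.2 and 8.02 at E10.5 and 1.57 and 1.3 at E11.5. The log2 change from E10.5 to E11.5 was -2.56 ± 0.22, with an adjusted p of 0.000175. Wnt16, which in zebrafish somites acts upstream of blood stem cell emergence, had 5.99 and 11.7 CPM at E9.5, then 15.4 and 15.2 at E10.5 and 3.14 and 3.3 at E11.5, a log2 change of -2.16 ± 0.30 with an adjusted p of 0.00164. Wnt16 was thus highest at label E10.5, with no overlap between any of the 3 labels. Beside them, the mesonephros marker Wt1 was at 86.4 and 78 CPM at E10.5 and 8.86 and 8.87 at E11.5, and 4 of the 5 mesonephros markers were lower, their sum going from 181 and 152 to 52.4 and 45.7 CPM. The part of that tissue in the result was not tested.

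**Figure D3:**
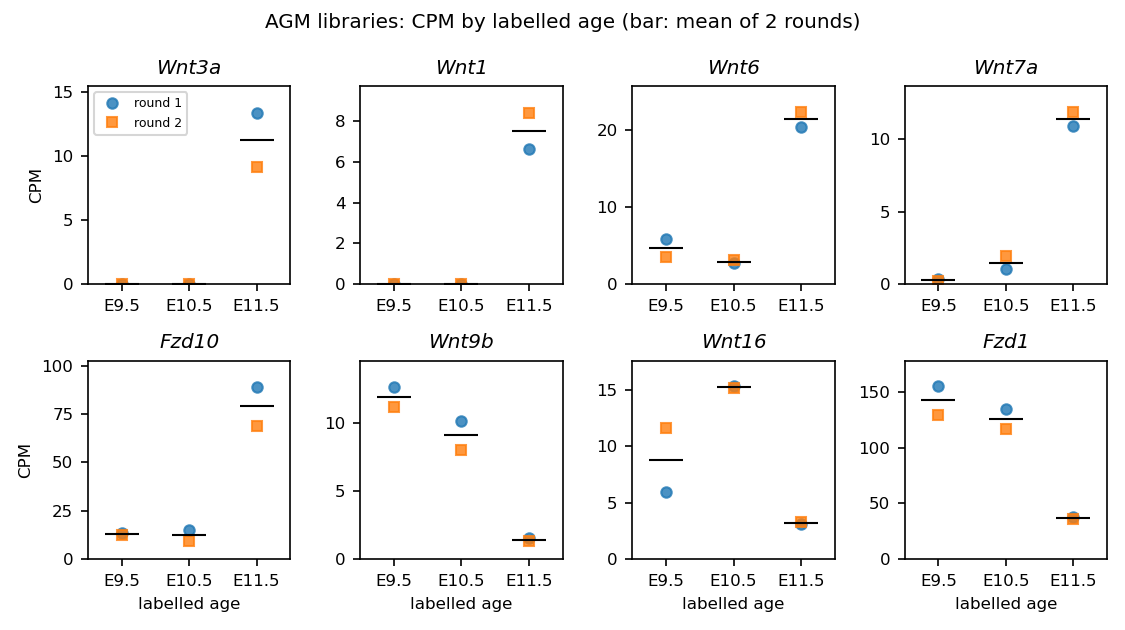
CPM (vertical axes, from 0, each panel on its own scale) against labelled age in the 6 AGM libraries for Wnt3a, Wnt1, Wnt6, Wnt7a, Fzd10, Wnt9b, Wnt16 and Fzd1. Points are single libraries by round, bars are means of 2, and the libraries labelled E11.5 lie apart from those labelled E10.5 in all 8 panels. The 8 genes were chosen from those called between these labels, so this separation largely follows from the choice.

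The other 8 ligands did not pass the test between these labels, though with the round as a block Wnt5b (adjusted p 0.00745) and Wnt7b (0.0207) were called higher and Wnt2b (0.00981) lower. Wnt5a, the highest of them, had 158 and 126 CPM at E9.5, then 99.8 and 94.3 at E10.5 and 105 and 70.4 at E11.5, and its log2 change from E10.5 was -0.05 ± 0.19 with an adjusted p of 0.871. Wnt4, which acts in kidney tubule formation and in the gonad, had 44.8 and 30.7 CPM at E9.5, then 20.4 and 17.7 at E10.5 and 18.4 and 18.9 at E11.5. Wnt5b had 16.9 and 15.2 CPM at E9.5, then 13.6 and 12.51 at E10.5 and 21.2 and 13.7 at E11.5, and Wnt11, a ligand of ureteric bud tips and heart, had 20.2 and 13.3 CPM at E9.5, then 8.77 and 5.65 at E10.5 and 6.24 and 4.88 at E11.5. Wnt2b had 13.8 and 11.3 CPM at E9.5, then 7.06 and 5.73 at E10.5 and 4.59 and 3.72 at E11.5, and Wnt7b 8.3 and 5.01 CPM at E9.5, then 3.14 and 3.37 at E10.5 and 4.71 and 5.25 at E11.5. Wnt9a ranged from 2.1 to 5.01 CPM over the 6 libraries and Wnt8b from 0.406 to 1.07. For Wnt2b, Wnt4, Wnt7b and Wnt11 the larger gap was between the labels E9.5 and E10.5.

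Among the Frizzleds, Fzd10, a receptor of dorsal neural tube and posterior embryo, had the largest rise. It had 13.3 and 12.4 CPM at label E9.5, then 14.9 and 9.57 at E10.5 and 89.2 and 68.6 at E11.5, a log2 change of 2.78 ± 0.23 with an adjusted p of 0.000138. Fzd9 had 2.47 and 1.77 CPM at E9.5, then 2 and 1.98 at E10.5 and 10.2 and 7.43 at E11.5 (log2 change 2.24 ± 0.25, adjusted p 0.000635). Neither gene passed the test between labels E9.5 and E10.5. The neural tube markers summed to 7.11 and 6.7 CPM at E9.5, then 15.3 and 19 at E10.5 and 208 and 215 at E11.5, and their part in the result was not tested. Fzd3, a receptor of axon guidance and planar polarity, rose by a smaller step, with 113 and 116 CPM at E9.5, then 124 and 140.4 at E10.5 and 179 and 183 at E11.5 (log2 change 0.55 ± 0.09, adjusted p 0.00359). Fzd7 had 151 and 125 CPM at E9.5, then 159 and 139 at E10.5 and 205 and 185 at E11.5 (log2 change 0.47 ± 0.13, adjusted p 0.0265). Its call was lost without the first-round library labelled E11.5 (adjusted p 0.132) or the second-round one labelled E10.5 (0.170).

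Fzd1, Fzd4 and Fzd8 fell. Fzd1 (chr5:4753839-4758035, minus strand) had 156 and 129.8 CPM at E9.5, then 135 and 117 at E10.5 and 38.2 and 36 at E11.5, a log2 change of -1.68 ± 0.13 with an adjusted p of 0.000109. Fzd4, a receptor of vascular development that also binds norrin, had 103 and 97.2 CPM at E9.5, then 114 and 103 at E10.5 and 57 and 51.2 at E11.5 (log2 change -0.92 ± 0.11, adjusted p 0.000759). Beside it, the 4 endothelial markers had summed levels of 283 and 259 CPM at E10.5 and 324 and 265 at E11.5. Fzd8 had 28.4 and 25 CPM at E9.5, then 26.6 and 24.2 at E10.5 and 16.2 and 14.8 at E11.5 (log2 change -0.62 ± 0.13, adjusted p 0.00973). Its call was lost without the first-round library labelled E10.5 (adjusted p 0.0713) or the second-round one labelled E11.5 (0.0611). Ror1, a receptor kinase for Wnt5a found in embryonic mesenchyme, was the co-receptor that fell, with 69.4 and 61.3 CPM at E9.5, then 44.8 and 38.4 at E10.5 and 17.9 and 23.6 at E11.5 (log2 change -0.92 ± 0.15, adjusted p 0.00365). Its paralog Ror2 had 78.9 and 67.1 CPM at E9.5, then 85.6 and 68.2 at E10.5 and 94.6 and 76.4 at E11.5, with overlapping libraries. Dermis markers, which mark mesenchyme, were lower at E11.5 in 4 of 5, Col1a1 being the exception, with sums of 1939.6 and 1653 against 1002 and 1026 CPM, and their part in these changes was not tested. Fzd2, Fzd5, Fzd6, Lrp5, Lrp6, Ror2 and Ryk did not pass the test, Lrp6 nearest to it with an adjusted p of 0.052. With the round as a block Ror2 (adjusted p 0.00363) and Ryk (0.0324) were called higher, and Fzd2 (0.0197), Lrp5 (0.00278) and Lrp6 (0.00099) lower, with log2 changes from -0.27 to 0.24. Fzd5 and Fzd6 were low, at 7.62 to 12.2 and 9.66 to 13.5 CPM over the 6 libraries.

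**Figure D4:**
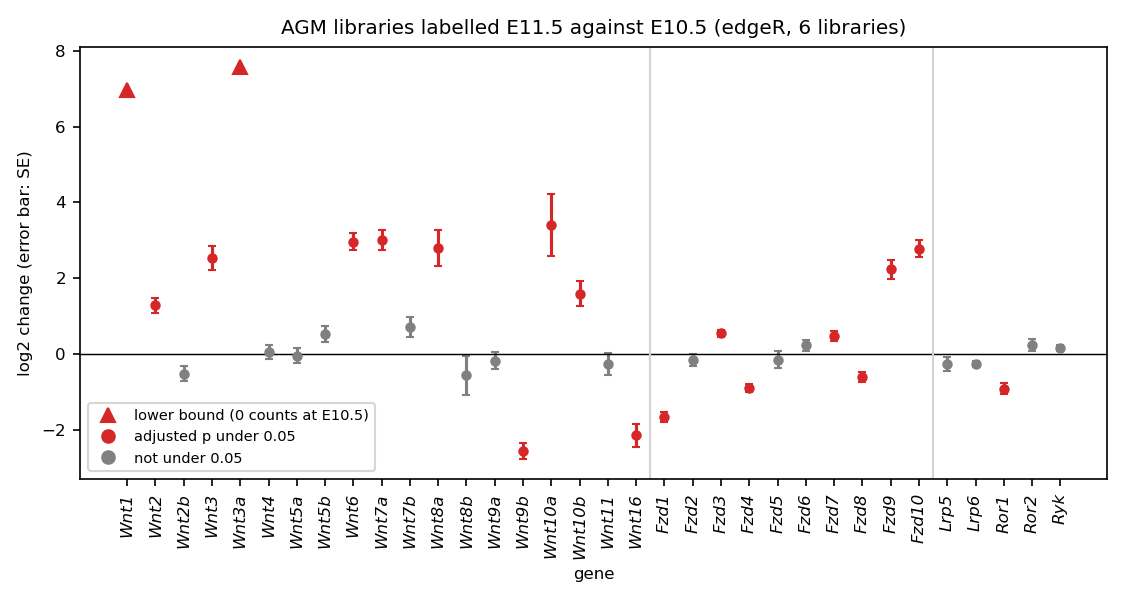
Log2 change (vertical axis, error bars are SE) between AGM libraries labelled E11.5 and E10.5 for the 34 genes from the fit of 6 libraries, with the 19 called genes in red. Triangles are the lower bounds for Wnt1 (125-fold) and Wnt3a (191-fold), which had 0 counts at E10.5.

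Between the AGM libraries labelled E10.5 and E9.5 only 2 of the 34 genes were called, 1 in each direction, beside 2.59% of all genes tested (0.874% higher and 1.72% lower). Wnt7a rose (0.339 and 0.247 CPM at E9.5, then 1.06 and 1.94 at E10.5), with a log2 change of 2.38 ± 0.39 and an adjusted p of 0.0293. Wnt4 fell, from 44.8 and 30.7 to 20.4 and 17.7 CPM, with a log2 change of -0.93 ± 0.18 and an adjusted p of 0.0414. The 19 ligands had a median log2 difference of -0.49, beside 0.00 over all genes. In both libraries labelled E10.5, 14 members lay below both labelled E9.5, beside 31.8% of all genes tested, and 6 lay above, beside 17.6%. The 14 were 11 ligands (Wnt2, Wnt2b, Wnt4, Wnt5a, Wnt5b, Wnt6, Wnt7b, Wnt9a, Wnt9b, Wnt10a and Wnt11) with Lrp6, Ror1 and Ryk, and the 6 were Wnt3, Wnt7a, Wnt10b, Wnt16, Fzd3 and Fzd4. An unadjusted p under 0.05 was found for 14 members. The share of all genes under that threshold is not given here, so this count does not set the members apart. With the round as a block 16 members were called, beside 24.1% of all genes, of which 7 were higher (12.1% of all genes) and 9 lower (12%). Leaving out the first-round library labelled E9.5 or the second-round library labelled E10.5 left 0 members called, and leaving out the second-round library labelled E9.5 gave 5.

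Other genes of the pathway were read in the same AGM fit, from lists that hold none of the 34 genes. The list counts here and in the next paragraph stand beside the shares of all genes called in each step, given above. No list was tested as a set. Among 7 common targets of the beta-catenin branch, 6 rose under the E11.5 label, with a median log2 change of 0.96. Axin2, a feedback inhibitor and the most general target, had 39 and 40.0 CPM at E9.5, then 46.8 and 44.9 at E10.5 and 89.6 and 80.2 at E11.5, a log2 change from E10.5 of 0.98 ± 0.10 with an adjusted p of 0.000482. Sp5, a target in the tailbud, went from 1.92 and 1.24 to 12.4 and 8.13 CPM (log2 change 2.79 ± 0.39), and Cdx1, a posterior patterning factor, from 0.734 and 0.697 to 13.5 and 9.99 (log2 change 4.12 ± 0.36). Nkd1 rose by 0.65 ± 0.13, Notum by 0.96 ± 0.20 and Ccnd1 by 0.70 ± 0.11 on the log2 scale. The list gene that did not pass was Nkd2, at 36.9 and 39.8 CPM at E10.5 and 28.3 and 25.4 at E11.5, and the round block called it lower. The tailbud markers moved with Sp5 and Cdx1, as they did with Wnt3a, and their part in the result was not tested.

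The R-spondin axis, whose secreted R-spondins keep Frizzleds on the cell surface, had 0 genes higher and 4 lower of 9. Rspo1 had 20.2 and 17.4 CPM at E10.5 and 8.78 and 8.04 at E11.5 (log2 change -1.07 ± 0.14). Rspo2 had 25.2 and 23.9 CPM at E9.5, then 8.97 and 8.79 at E10.5 and 2.54 and 2.37 at E11.5 (log2 change from E10.5 -1.76 ± 0.15), and the R-spondin receptors Lgr4 and Lgr6 changed by -0.55 ± 0.11 and -1.91 ± 0.23. Of 8 nuclear effectors, Lef1 (1.33 ± 0.13) and Tcf7 (1.30 ± 0.11) rose while Pygo1 and Bcl9l fell. Planar polarity genes rose in 5 and fell in 2 of 9, and secreted antagonists rose in 4 and fell in 2 of 11 tested. Of 11 cytoplasmic transducers 2 fell, of 5 secretion genes 2 fell, and none of either list rose. With the round as a block the secretion gene Wls (adjusted p 0.000782), the transducer Dvl1 (0.0351) and the R-spondin axis genes Znrf3 (0.0196) and Rnf43 (0.0093) were called higher. So were the antagonist Sfrp4 (0.0463) and the planar polarity gene Scrib (0.00441). Besides Nkd2, the block newly called lower the transducer Gsk3b (0.00171) and the nuclear effectors Tcf7l1 (0.000216), Tcf7l2 (0.00952) and Bcl9 (0.00174). From label E9.5 to E10.5, Rspo4 rose by 2.04 ± 0.31, Rspo2 fell with a log2 change of -1.41 ± 0.13 and the antagonist Dkk2 with -0.84 ± 0.17, and no other gene of these lists was called. With the round block, which called 24.1% of all genes in that step, more of them were. The targets had 2 higher (Axin2 and Nkd2) and the antagonists 1 higher (Frzb) and 5 lower of 11. Nuclear effectors had 2 higher (Tcf7 and Lef1) and 3 lower of 8, planar polarity genes 2 higher (Celsr2 and Celsr3) of 9, R-spondin axis genes 1 higher and 4 lower of 9, and secretion genes 2 lower of 5.

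The ligands include 4 neighbouring pairs. Wnt1 and Wnt10b on chromosome 15 start 11.7 kb apart and are transcribed away from each other, as are Wnt3a and Wnt9a (16.2 kb) and Wnt3 and Wnt9b (24.3 kb) on chromosome 11, while Wnt6 and Wnt10a on chromosome 1 run in the same direction with starts 19.6 kb apart. Under the E11.5 label Wnt3 rose while its neighbour Wnt9b fell. Wnt10b rose beside Wnt1, and Wnt6 beside Wnt10a, while Wnt9a, beside Wnt3a, did not pass the test. Since Wnt1, Wnt3a and Wnt10a passed the low-count filter only through the libraries labelled E11.5, these 3 pairs do not show whether neighbours moved together.

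Promoter sequences are shown for Wnt3 and Wnt9b, called in opposite directions in the AGM, for Wnt3a and its neighbour Wnt9a, and for Wnt11, 1 of the 2 members with a TCF/LEF word in its upstream window. They are the 250 bases before a RefSeq transcription start (GRCm38.p6), 5′ to 3′ on the gene's strand, in lower case with the TCF/LEF word in capitals: Wnt3a chr11:59290752-59291001 (minus), Wnt9a chr11:59306680-59306929 (plus), Wnt3 chr11:103773925-103774174 (plus), Wnt9b chr11:103749822-103750071 (minus) and Wnt11 chr7:98834862-98835111 (plus).
Wnt3a: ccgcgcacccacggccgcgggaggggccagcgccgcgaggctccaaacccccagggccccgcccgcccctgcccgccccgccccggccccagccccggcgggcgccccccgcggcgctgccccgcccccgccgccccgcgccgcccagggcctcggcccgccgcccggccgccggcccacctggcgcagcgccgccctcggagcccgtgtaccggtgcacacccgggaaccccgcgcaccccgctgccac
Wnt9a: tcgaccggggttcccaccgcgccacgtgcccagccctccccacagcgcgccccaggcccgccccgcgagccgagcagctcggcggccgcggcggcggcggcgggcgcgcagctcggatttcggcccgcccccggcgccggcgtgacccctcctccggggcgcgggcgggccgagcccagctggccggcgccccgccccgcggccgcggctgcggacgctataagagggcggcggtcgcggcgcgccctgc
Wnt3: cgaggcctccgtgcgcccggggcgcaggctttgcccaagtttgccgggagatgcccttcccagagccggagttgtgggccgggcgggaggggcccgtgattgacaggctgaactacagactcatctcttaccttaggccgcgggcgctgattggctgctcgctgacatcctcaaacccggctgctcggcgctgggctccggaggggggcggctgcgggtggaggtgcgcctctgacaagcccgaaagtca
Wnt9b: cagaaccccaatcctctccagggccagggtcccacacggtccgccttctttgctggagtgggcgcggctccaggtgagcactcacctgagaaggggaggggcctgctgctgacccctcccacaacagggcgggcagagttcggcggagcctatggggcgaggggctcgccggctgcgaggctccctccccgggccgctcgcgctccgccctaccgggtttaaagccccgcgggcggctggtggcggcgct
Wnt11: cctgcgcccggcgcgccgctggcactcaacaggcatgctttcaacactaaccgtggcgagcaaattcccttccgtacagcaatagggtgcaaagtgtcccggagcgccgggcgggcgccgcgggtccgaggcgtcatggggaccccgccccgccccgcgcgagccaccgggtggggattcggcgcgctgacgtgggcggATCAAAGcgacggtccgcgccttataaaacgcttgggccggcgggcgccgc
The words searched were CTTTGAA and CTTTGAT on both strands, words that differ in their last letter and so cannot both match at 1 place. RefSeq windows were at hand for 24 of the 34 genes, 27 windows in all, and 2 of them held a word (7.41%), beside 7.48% of the 32851 windows of all genes, so the members were at the background. The second was 1 of the 3 Wnt5b windows. Members' windows were GC-rich, with a median GC content of 71.6% against 52.4% over all windows.

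In skin the test that treats both projects as duplicates called 0 of the 34 genes between any neighbouring ages. It also called 0 of 20429 genes (0% in each comparison). At an unadjusted p under 0.05 it found 0, 0 and 2 members in the 3 steps from E9.5 to E14.5, and DESeq2 called 0 members in each. Shares of all genes for these counts are not given here. Same-age libraries of the 2 projects correlated at 0.625 to 0.716, against 0.993 to 0.995 for the AGM rounds. First-project skin is therefore described below as 1 library per age, with no replicate, by ratios of CPM and 95% exact intervals that cover counting error only. Genes are counted at a 2-fold difference with 1 CPM or more in the higher library. Each share of all genes beside a 2-fold count is over the genes that reached 1 CPM there. Of the 34 members 31, 32 and 31 did so in the 3 steps.

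From E9.5 to E10.5, 6 of the 34 genes differed by 2-fold or more, 4 higher and 2 lower, beside 12.4% of all genes (8.05% higher and 4.38% lower). Wnt7b, a ligand of epithelia and the nervous system, had 5.47, 69.4, 37.3 and 113 CPM from E9.5 to E14.5, and its ratio of E10.5 to E9.5 was 12.7 (95% interval 10.4 to 15.5). Wnt3 had 3.11, 15, 13.1 and 78.3 CPM, a ratio of 4.81 (95% interval 3.66 to 6.41) in that step. Wnt9a (3.66, 9.29, 15.6 and 13.5 CPM) and Wnt9b (0.853, 3.17, 4.25 and 4.21 CPM) were higher by 2.54 (95% interval 1.93 to 3.36) and 3.72 (95% interval 2.17 to 6.73). These 4 ligands were lowest in the E9.5 library. Wnt2 was lower at E10.5, with 9.03, 1.1, 5.46 and 12.4 CPM over the 4 ages, by a factor of 8.21 (95% interval 5.38 to 13), and Fzd4, with 52.4, 24.1, 98 and 48.1 CPM, by 2.17 (95% interval 1.96 to 2.41).

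Wnt1, Wnt3a, Wnt7a, Wnt16, Fzd3 and Fzd10, several of them known from the dorsal neural tube, were highest at E10.5. Wnt1 had 13.1, 24.7, 0.542 and 0 CPM in age order, with an E12.5 level lower than at E10.5 by a factor of 45.6 (95% interval 26.4 to 86.2). Wnt3a had 10.49, 14.4, 4.71 and 11.6 CPM, Wnt7a 18.8, 26.6, 9.54 and 18.1 and Wnt16 12.7, 21.1, 3.12 and 16.9, and all 3 were lower at E12.5, by factors of 3.06 (95% interval 2.46 to 3.82), 2.79 (95% interval 2.39 to 3.26) and 6.76 (95% interval 5.29 to 8.75). Unlike Wnt1, these 3 were higher again at E14.5 than at E12.5. Fzd3 had 385, 595, 173 and 87.5 CPM and Fzd10 104, 192, 60.3 and 127, both lower at E12.5 by 3.45 (95% interval 3.33 to 3.57) and 3.18 (95% interval 3 to 3.38). The 5 neural tube markers summed to 432, 581, 23.3 and 3.13 CPM, all 5 at least 2-fold lower at E12.5 with Atoh1 at 0. The 3 roof plate markers summed to 95.6, 92.2, 99.6 and 4.03 CPM. Of these 3, 1 was at least 2-fold lower at E12.5 than at E10.5, and all 3 were so at E14.5 against E12.5. The part of either list in these differences was not tested.

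At E12.5 a different set was highest. In all, 19 of the 34 genes differed by 2-fold or more from E10.5, 13 higher and 6 lower, beside 26% of all genes (18.9% and 7.17%). Wnt11 had 4.82, 2.91, 61.7 and 41.7 CPM over the 4 ages, a ratio of 21.2 (95% interval 16.6 to 27.6) in this step, and Wnt5a had 63, 52.7, 337 and 122, a ratio of 6.4 (95% interval 6.02 to 6.8). Wnt5b had 13.5, 11.8, 25.4 and 7.97 CPM and Wnt2b 4.37, 4.89, 18.7 and 17.1, with ratios of 2.16 (95% interval 1.87 to 2.5) and 3.84 (95% interval 3.11 to 4.77). These ligands are expressed in embryonic mesenchyme, and each had its highest value at E12.5. So did Fzd1, Fzd4, Fzd8, Fzd9 and Ror1 among the receptors. Fzd8 had 22.6, 16.4, 94 and 16.6 CPM with a ratio of 5.74 (95% interval 5.14 to 6.42), Fzd4 a ratio of 4.06 (95% interval 3.7 to 4.47), and Ror1, with 31.1, 23.8, 77.2 and 40.9 CPM, a ratio of 3.24 (95% interval 2.94 to 3.57). Fzd1 had 56.1, 45.6, 134 and 107 CPM with a ratio of 2.93 (95% interval 2.73 to 3.15). Fzd5, with 8.83, 4.71, 10.2 and 10.9 CPM, and Lrp5, with a ratio of 2.07 (95% interval 1.96 to 2.19), were also higher than at E10.5. Fzd9 had 11, 9.55, 18.5 and 8.82 CPM and Ror2 95.8, 63.5, 95.5 and 60.4. Wnt5a, Wnt5b, Fzd4, Fzd8 and Fzd9 were then lower by 2-fold or more at E14.5, the 5 genes to be so, with factors of 2.76 (95% interval 2.64 to 2.88) for Wnt5a and 5.67 (95% interval 5.08 to 6.35) for Fzd8. The 4 limb bud markers (Tbx5, Tbx4, Hoxd12 and Hoxa13) summed to 20.4, 0.176, 334 and 2.87 CPM and were all at least 2-fold higher at E12.5 and lower at E14.5. All 5 dermis markers were higher at E12.5. At E14.5, 4 of the 5 were at least 2-fold higher again and 1, Pdgfra, was at least 2-fold lower. Their sums were 988, 733, 6466 and 21698 CPM in age order. The part of either tissue in these values was not tested.

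At E14.5 the ligands of epidermis and hair placodes were highest. From E12.5, 16 of the 34 genes differed by 2-fold or more, 11 higher and 5 lower, beside 26% of all genes in both directions together. That share is not given here by direction, so the split into 11 and 5 does not set the members apart. Of the 11, 9 were ligands, where 16 of the 31 members at 1 CPM or more were ligands. Among these 9, Wnt3a and Wnt16 were higher at E10.5 than at E14.5. Wnt6 had 22.5, 16.5, 26.4 and 146 CPM from E9.5 to E14.5, a ratio of E14.5 to E12.5 of 5.54 (95% interval 5.09 to 6.04). Wnt4 had 19, 35.9, 30.5 and 128 CPM, a ratio of 4.2 (95% interval 3.87 to 4.56), and Wnt10b, an early placode ligand, had 2.81, 3.21, 7.92 and 57.9, a ratio of 7.31 (95% interval 6.28 to 8.56). All 3 had their lowest values at E9.5 or E10.5 and stood well above every other age at E14.5. Wnt10a had 0.502, 0.88, 5.17 and 23.4 CPM with a ratio of 4.52 (95% interval 3.71 to 5.55), Wnt3 a ratio of 5.97 (95% interval 5.29 to 6.75), Wnt7b of 3.04 (95% interval 2.81 to 3.28) and Wnt16 of 5.42 (95% interval 4.22 to 7.03). Fzd6, the receptor that orients hair follicles, had 14.3, 17.2, 23.8 and 99.9 CPM and a ratio of 4.2 (95% interval 3.83 to 4.61). The 7 ectoderm and keratinocyte markers, Krt5 and Krt14 among them, summed to 151, 45.2, 219 and 3147 CPM, all 7 at least 2-fold higher at E14.5, and their part in these values was not tested.

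**Figure D5:**
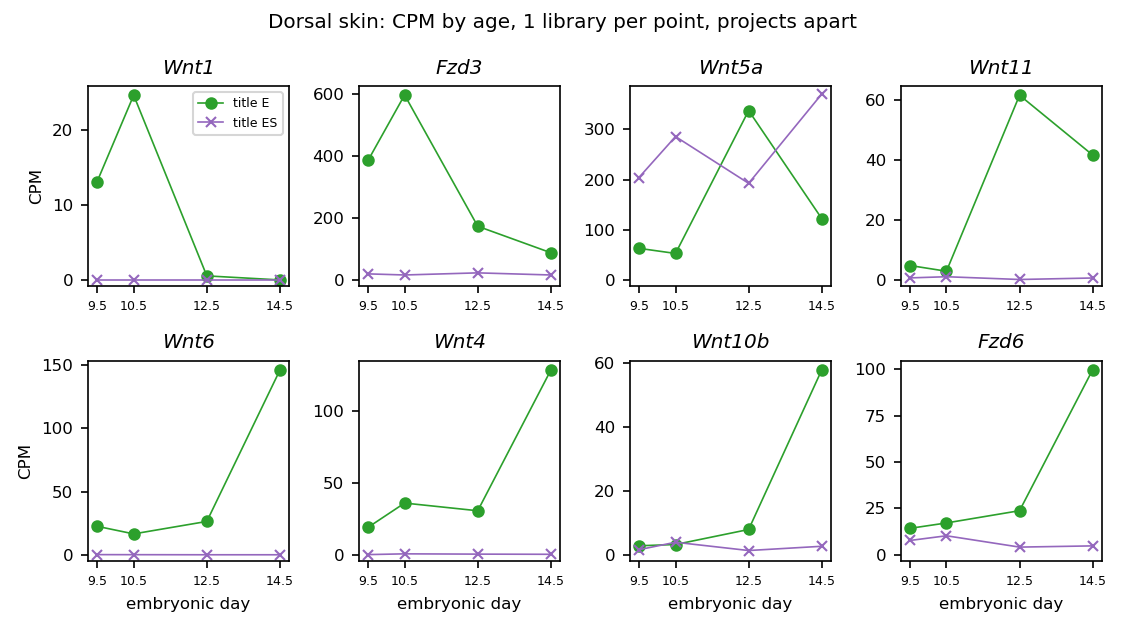
CPM (vertical axes, own scale per panel) against embryonic day for 8 genes in first-project (titles E) and second-project (titles ES) skin, 1 library per point. First-project Wnt1 and Fzd3 are highest at E10.5, Wnt5a and Wnt11 at E12.5, and Wnt6, Wnt4, Wnt10b and Fzd6 at E14.5, and the second project follows none of these courses.

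A fit that left out second-project skin had no skin replicates, so each skin library was assumed to vary like the AGM pairs. From E9.5 to E10.5 it called 7 members, beside 6.43% of all genes, of which 5 were higher (4.64%) and 2 lower (1.79%). From E10.5 to E12.5 it called 24, beside 30.1%, of which 16 were higher (17.4%) and 8 lower (12.7%). From E12.5 to E14.5 it called 22, beside 27.5%, of which 13 were higher (14.3%) and 9 lower (13.2%).

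Second-project skin did not repeat these courses. It had 3, 4 and 1 members at 2-fold or more in the 3 steps, of the 22, 22 and 21 that reached 1 CPM. Of all genes that reached 1 CPM, 8.18%, 18% and 19.4% differed by 2-fold or more. With TMM scaling the last step had 3, as Wnt5a (ratio 2.05) and Wnt10b (2.13) then passed 2-fold. Of the first-project genes at 2-fold with at least 1 CPM in the second project (4, 13 and 9 in the 3 steps), 2 differed by 2-fold in the same direction from E9.5 to E10.5, Wnt7b and Wnt9a, and 0 in each later step by CPM. By TMM scaling Wnt10b was higher in both projects at E14.5, and Wnt5a was higher in the second project where it was lower in the first. From E10.5 to E12.5 there were 2 that differed in opposite directions, Wnt10b and Wnt11, both at under 4 CPM in the second project. How often all genes agreed between the projects is not given here, so these counts do not set the members apart from other genes. Wnt5a had 204, 286, 192 and 370.5 CPM in these 4 libraries, Wnt7b 1.02, 2.85, 1.48 and 2.53 and Wnt9a 3.85, 7.83, 5.32 and 6.48. Wnt1, Wnt3a and Wnt9b had 0 counts in all 4, and Wnt6 had 0.113, 0.0712, 0 and 0 CPM. In Wnt4, with 0.113, 0.641, 0.443 and 0.324 CPM, and Fzd10, with 0.113, 0.57, 0.148 and 0.13, every library was likewise under 1 CPM. Wnt10b had 1.59, 3.92, 1.33 and 2.66 CPM and Wnt11 0.68, 1.07, 0.148 and 0.648, both highest at E10.5. Over the 4 libraries Wnt3 had 3.85, 7.48, 3.4 and 4.92 CPM and Wnt10a 1.02, 1.07, 1.03 and 1.04, and Wnt2 and Wnt2b ranged from 0.113 to 0.783 and from 2.04 to 3.99 CPM. Wnt5b ranged from 1.94 to 2.51, Wnt7a from 0 to 0.142 and Wnt16 from 0.142 to 0.972 CPM. Wnt5a was the single ligand to reach 10 CPM in any library of this project. Among receptors Fzd3 ranged from 15.9 to 22.7 CPM, Fzd4 from 7.58 to 12.1, Fzd6 from 4.14 to 10.3, Fzd8 from 6.2 to 7.9 and Fzd9 from 0 to 0.324. Ror1 ranged from 3.04 to 6.94 and Ror2 from 11.2 to 13.3 CPM.

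Across ages, 22 of the 34 genes were lower in every second-project library than in every first-project one, beside 37.1% of all genes at 1 CPM or more, and 1 was higher, beside 24%. The 22 are 11 ligands, 8 Frizzleds and 3 co-receptors. The gene that was higher is Fzd5, with 18.3, 24.3, 25 and 23.2 CPM against 8.83, 4.71, 10.2 and 10.9. Wnt5a, Wnt3, Wnt9a, Wnt10a, Wnt10b, Fzd1, Lrp5 and Ryk overlapped between projects, and so did Wnt1 through its 0 at E14.5. Wnt8a and Wnt8b were under 1 CPM in all skin libraries. Dermis markers were present in the second project at 4633 to 6521 CPM in sum, against 733 to 21698 in the first. Keratinocyte markers summed to 15.2 to 37.2 CPM against 45.2 to 3147. All of them but Krt8 were lower in every second-project library, Krt5 at 0.324 to 1.62 CPM against 3.36 to 1722. Krt8 overlapped, at 10.4 to 25.7 CPM against 2.58 to 50.5. Macrophage markers summed to 61.3 to 149 CPM in the second project and 4.52 to 73.4 in the first, which also overlap. The part of cell composition in these differences was not tested, and the project cannot be told apart from any difference in how these samples were taken.

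By label, 2 ages (E9.5 and E10.5) were sampled in AGM and in skin. The fit of all 14 libraries called 0 members and 0 genes (0%) at either age. DESeq2 called 2 and 3 members, for which no share of all genes is given here. At an unadjusted p under 0.05 the edgeR fit found 5 and 4 members and 950 and 847 genes. With skin project and AGM round as separate block terms it called 10 members at E9.5, beside 21.2% of all genes, of which 9 were higher in AGM (13.1% of all genes) and 1 lower (8.03%). At E10.5 it was again 10, beside 18.8%, with 7 higher (11.1%) and 3 lower (7.68%). That fit sets AGM against the midpoint of both skin projects and takes the gap between projects out of the error, so its calls do not show that AGM lay apart from either project. By libraries that did not overlap, 14 members were above both skin projects at E9.5 (26.7% of all genes) and 4 below (12.4%), and at E10.5 13 were above (22.8%) and 5 below (14.7%). Wnt2, Wnt2b, Wnt5b, Wnt8b, Wnt9b, Wnt11, Fzd1, Fzd4, Fzd8, Lrp5, Lrp6 and Ror1 were above at both ages, and Wnt3, Wnt10a, Wnt10b and Ryk below. Wnt9b stood apart from both skin projects at both ages, with at most 3.17 CPM in skin up to E10.5 and at least 8.02 in AGM. Fzd4 likewise was at 52.4 CPM or less in skin of these ages and at 97.2 to 114 in AGM. Wnt3 was at 0.203 to 0.816 CPM in AGM and at 3.11 or more in skin.

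For several genes the direction depended on the skin project. Fzd10 at E9.5, with 13.3 and 12.4 CPM in AGM, lay between 104 CPM in first-project and 0.113 CPM in second-project skin. Wnt4 at E10.5 had 20.4 and 17.7 CPM in AGM, between 35.9 and 0.641 CPM in the skin projects. Ror2 at E9.5, with 78.9 and 67.1 CPM in AGM, lay between 95.8 and 11.2 CPM. No project holds both tissues, so tissue and project cannot be told apart.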

How the data were processed

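PolyA RNA-seq libraries of mouse dorsal skin (8) and AGM (6) were analysed from 1 deposited table, in which the authors give raw read counts per gene. Per the submitters' processing notes the genome was GRCm38/mm10 and the tools included featureCounts 1.6.0, STAR 2.5.0a, Trimmomatic 0.36 and DESeq2 1.20.0. Settings, including use of strand, are not given in the sources used here, so reads of overlapping antisense genes could be counted with a member. The labels do not say that libraries of a group are from separate embryos. A p-value here reflects the spread between the libraries, which may be technical.

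CPM was computed from column totals, and CPM per kb with the union of exons in GENCODE M21. AGM ages were tested with edgeR 4.0.16 (R 4.3.3) on 6 AGM libraries: filterByExpr by group, TMM, glmQLFit and glmQLFTest, Benjamini-Hochberg over all tested genes, called under 0.05. Skin ages and tissues were tested on all 14 libraries in the same way, where the common dispersion was 0.664. Within a skin project, 1 library per age allows ratios only, counted at 2-fold with 1 CPM in the higher library. Groups at 0 counts take a floor of 3 counts. Alternatives were other size factors, DESeq2 1.42.0, no filter, a replicate block, other sets of libraries and each library left out. Scripts were tested on simulated data.

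Replicate numbers mark a project or round in the labels. Replicate differences correlated between ages over 15747 genes, at 0.734 to 0.949 for 6 pairs of skin ages and 0.429 to 0.605 for 3 pairs of AGM ages, so within each tissue the numbers were taken to pair the samples, with a separate block term for skin and for AGM. The members and gene lists were chosen with earlier results of these data known. Every library's value is given for members called between AGM ages with a mean of 1 CPM or more, at 2-fold in first-project skin, or among the 5 highest per kb in any library, with ranges for some that did not change, and for pathway lists the targets and called R-spondin genes are named. Promoter windows come from RefSeq (GRCm38.p6).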

Additional observations from a re-analysis of the deposited data

How the results depend on the processing

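Settings that moved the count of called members most were as follows. For AGM labels E10.5 against E9.5 (2 members) they were median-of-ratios size factors (1), DESeq2 (7), no low-count filter (12), the replicate block (16), all 14 libraries in 1 fit (0), all libraries without second-round AGM (0) and, at 2-fold, the first round alone (7), with 0 to 5 when a library was left out. For labels E11.5 against E10.5 (19 members) the fits of all 14 libraries and without second-round AGM gave 0, the replicate block 27, no low-count filter 21, and leaving out a library 16 to 20. The common dispersion of those larger fits was set by the skin pairs. Except where given above, shares of all genes under these alternatives are not given here, so their counts do not set the members apart. Of 190 values of single called genes under alternatives, 182 kept direction and call, 8 lost the call and 0 reversed, and 15 of the 19 genes kept it in every AGM setting.

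For skin, where the test called 0 members in each step, the 10 libraries without second-project skin gave 7, 24 and 22, and with the replicate block 17, 30 and 27. For AGM against skin at E9.5 and E10.5, also 0, DESeq2 gave 2 and 3, the replicate block 10 and 10, the 10 libraries 19 and 22, and these with the block 24 and 29. Leaving out a library gave 0 to 0 in all 5 of these comparisons. The 10-library fit takes the spread of skin from the AGM pairs. Where no share of all genes is given above for a fit, its count does not set the members apart from other genes. Counts at 2-fold within first-project skin (6, 19 and 16) were 3, 4 and 1 in second-project skin, and with TMM scaling 6, 18 and 15, which shifts first-project ratios of E14.5 to E12.5 by 0.14 on the log2 scale and the other steps of either project by under 0.1, and which lost Lrp5 at E12.5 and Fzd4 and Fzd9 at E14.5 and added Wnt7a at E14.5. The test of whether the E9.5 to E10.5 change differs between tissues called 0 members and 0 genes with edgeR, with 1 and 62 at an unadjusted p under 0.05. The fits without second-round AGM, the block in 10 libraries and the single-round counts were chosen after seeing the data. Low depth limits second-project skin, whose smallest library has 6770338 counts.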
